A study of Mus musculus with 9 samples.

Results

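The comparison described here sets EpPT2 against EpPT1, the higher against the lower of the light exposures given to HC11 cells, and it uses 6 of the 9 RNA-seq libraries of the study. The members are the 3 libraries labelled EpPT1 and the 3 labelled EpPT2, chosen by those labels alone and compared across all 54532 genes of the table. HC11 is an established mouse mammary epithelial line, labelled strain C57BL/6, and all groups were grown in DMEM with fetal bovine serum. EpPT1 is labelled 10 J/cm2 and EpPT2 20 J/cm2 of 660 nm light. The written treatment protocol instead gives fluences of 0.5 and 1 J/cm2 at a laser power of 10 mW, so labels and protocol disagree. Beside the comparison, 3 untreated libraries (Ctrl) are shown. How long after the light the cells were lysed is not stated in the labels. The labels also leave unsaid whether each library had its own culture, and p-values here measure only how far these libraries spread, which may be technical. All libraries come from 1 cell line.

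Red and near-infrared light at low power is studied for effects on cells under the name photobiomodulation. The best known proposed light acceptor is cytochrome c oxidase, the terminal enzyme of the mitochondrial respiratory chain, whose core subunits are encoded in the mitochondrial genome and whose other subunits are nuclear. Downstream of light or any other stimulus, immediate early genes such as Fos, Egr1 and Atf3 are transcribed within a short time without new protein synthesis, and stress programmes (NRF2, p53, the integrated stress response) are commonly followed as readouts of damage or oxidant load.

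The 6 exposed libraries held 14549787 to 17228929 counts, and the Ctrl libraries 14768299 to 16095370. The luminal epithelial markers Krt8, Krt18 and 9 others summed to between 2980 and 3620 CPM (counts scaled to a common library size) in the exposed libraries, against 9.4 to 25.4 CPM for basal markers. Marker sums are in CPM without TMM scaling, while CPM of single genes is scaled by TMM. Fibroblast markers summed to 774 to 2110 CPM, with 4 of 10 having enough counts to test and Thy1 at 0 in all 9 libraries. Blood and immune markers summed to 18.5 to 109 CPM in the exposed libraries (3 of 9 testable), with Adgre1 at 0 throughout. Endothelial markers summed to 3.23 to 20.5 CPM there (2 of 6 testable), with Emcn at 0 throughout. Fat cell markers summed to 240 to 413 CPM in the exposed libraries (1 of 7 testable). The share of counts on mitochondrial genes divided the libraries into 5 under 5% and 4 over 5% (called low and high, or the low and high side, from here on), and the division crossed the groups. Among the exposed libraries the share was 3.44%, 2.74% and 6.93% in EpPT1 1, 2 and 3 and 3.38%, 6.06% and 6.94% in EpPT2 1, 2 and 3. EpPT1 thus had 1 library on the high side and EpPT2 had 2. The first principal component, with 53.6% of the variance, followed the same division (-35.8 and -43.3 in the low EpPT1 libraries and -39.8 in EpPT2 1, against 56.5 to 64.9 in the high ones).

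No gene passed the test between the exposures. Of 14471 genes with enough counts to test, 0 were called by edgeR's quasi-likelihood test at an adjusted p under 0.05 (0% of genes tested), and the lowest adjusted p was 0.9999. DESeq2 and limma-voom also called 0, and their unadjusted p was under 0.05 for 38 and 22 genes. With edgeR, 31 genes had an unadjusted p under 0.05, 10 higher and 21 lower in EpPT2, where 724 would be expected if no gene differed and p-values were uniform. Of these 31, 23 were predicted genes or pseudogenes. That count depended on single libraries and came to 67 without EpPT1 2, 709 without EpPT1 3, 182 without EpPT2 1, 19 without EpPT2 2 and 17 without EpPT2 3. The biological coefficient of variation was 39.3%, and 2 standard errors of a typical gene came to a 1.66-fold difference. That is not a limit of detection, since simulated 2-fold changes were recovered in 8% and 4-fold changes in 66% of cases at the adjusted threshold. The simulation had no low and high division, so these rates need not hold for the real libraries. The median log2 difference over all genes was -0.01, with quartiles of -0.20 and 0.20, and 48.3% of genes had a positive difference. Across the tested genes the difference ran with GC content (Spearman's rho 0.36 over genes, which share the same 6 libraries); the part of GC content in the result was not tested beyond the correction for it, after which 0 genes were called.

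Some libraries of different exposures were closer to each other than most pairs of libraries within a group were. Among 10242 genes with a mean of at least 5 CPM, EpPT2 1 differed from EpPT1 2 by more than 2-fold in 26 genes (0.254%). EpPT2 2 differed from EpPT1 3 in 22 genes (0.215%), and EpPT2 3 from EpPT1 3 in 27 genes (0.264%). The closest pair lay within EpPT2, where libraries 2 and 3 differed in 14 genes. Across the mitochondrial division the numbers were far larger. EpPT2 1 differed from EpPT2 2 in 1576 genes and from EpPT2 3 in 1571 genes, and EpPT1 3 differed from EpPT1 2 in 1929 genes. EpPT1 1 stood apart from all other exposed libraries, with 991 genes against EpPT2 1 and 1003 against EpPT1 2, and its nearest library was Ctrl 2, from which it differed in 119 genes. Whether libraries were exchanged or mislabelled cannot be told from the labels, so each value is that of the library so labelled. Leaving EpPT1 1 out gave 0 genes called and 25 at an unadjusted p under 0.05. The log2 CPM of EpPT1 1 was lower in genes of high GC content (slope -0.379 per 10 points of GC), as in the Ctrl libraries (-0.522 to -0.237), while the slope was 0.197 to 0.387 in the other 5 exposed libraries. No pair agreed within sampling noise (chi-square per gene 4.99 for the closest pair, EpPT2 2 and 3), and each library was counted once. That value cannot tell separate cultures from repeated preparations of 1 culture.

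**Figure D1:**
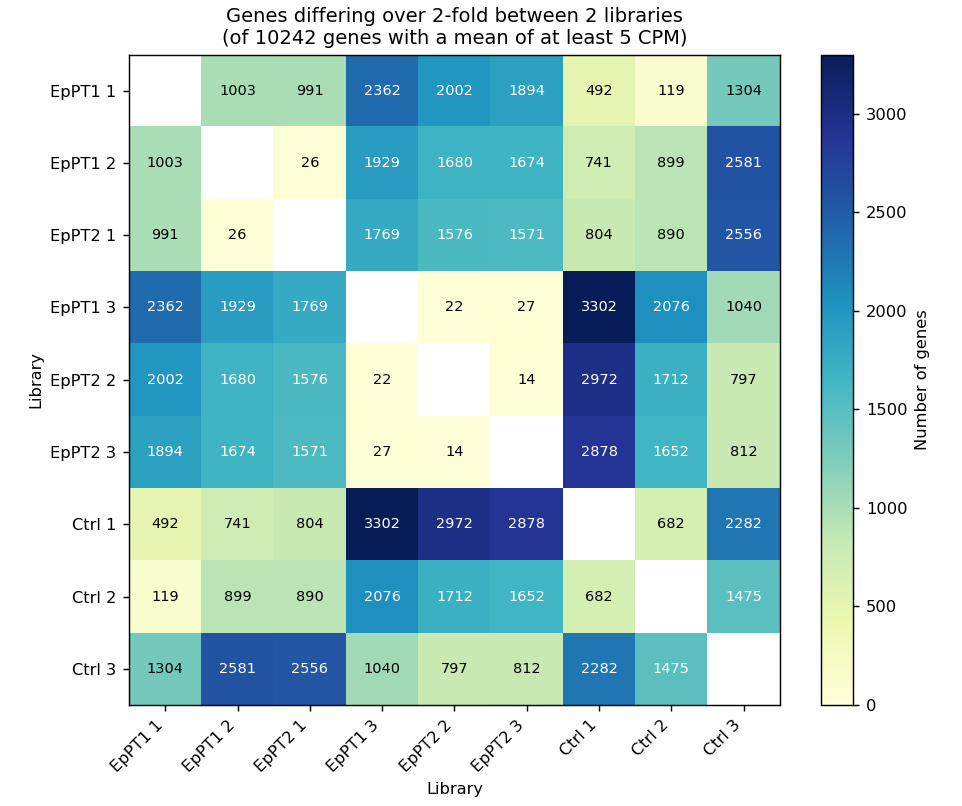
Number of genes that differ by more than 2-fold between each 2 of the 9 libraries, among 10242 genes with a mean of at least 5 CPM; rows and columns are libraries, ordered so that similar exposed libraries adjoin. The pale cells at 26, 22 and 27 genes join an EpPT2 with an EpPT1 library, and EpPT1 1 is closest to Ctrl 2 at 119.

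In 182 genes all 3 EpPT2 libraries lay above all 3 EpPT1 libraries (1.26% of genes tested), and in 173 they lay below (1.2%). None of these passed the test. The genes named next are from the 10 in each direction with the smallest unadjusted p among those of at least 5 CPM, and their values are a description of the libraries.

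The gene with the smallest p in the higher direction was mt-Nd4l (MT, 9877 to 10173), which encodes a subunit of respiratory complex I. Its level was 2.08, 2.94 and 4.85 CPM in EpPT1 1 to 3 and 5.24, 8.58 and 7.34 CPM in EpPT2 1 to 3, with 1.97 to 2.85 CPM in Ctrl. Every EpPT2 library was above every EpPT1 library, with means of 7.05 ± 1.69 against 3.29 ± 1.42 CPM (SD, n = 3), a log2 difference of 1.10 (SE 0.41) and an edgeR adjusted p of 0.9999. The gene overlaps mt-Nd4, which was at 1254 to 2901 CPM, so the assignment of reads between them is uncertain. Dynlt1c (chromosome 17, 6601671 to 6609774), a dynein light chain with near-identical neighbouring copies, was at 6.12, 6.51 and 2.70 CPM in EpPT1 and 11.6, 9.50 and 9.04 CPM in EpPT2 (log2 difference 0.97, SE 0.40). Those copies make its count uncertain too. Tmem216, which encodes a protein of the ciliary transition zone, was at 7.44, 7.87 and 7.42 CPM in EpPT1 and 8.29, 11.3 and 14.0 CPM in EpPT2. Its Ctrl libraries, at 8.43 to 12.5 CPM, covered most of that span. Styk1, which encodes a kinase-like membrane protein, was at 14.2, 16.1 and 16.5 CPM in EpPT1 and 17.2, 23.0 and 23.5 CPM in EpPT2. Entpd6, an ectonucleotidase, was at 16.4, 23.0 and 23.3 CPM against 23.5, 27.7 and 34.6 CPM, so that EpPT2 1 lay only just above the highest EpPT1 library.

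Ptges, the inducible prostaglandin E synthase, had a log2 difference of 0.56 (SE 0.32), from 7.57 ± 2.11 CPM in EpPT1 to 11.1 ± 1.57 CPM in EpPT2 (SD, n = 3). Rnf5, a ubiquitin ligase of the endoplasmic reticulum, was at 7.17 ± 1.25 CPM in EpPT1 and 10.1 ± 0.66 CPM in EpPT2 (SD, n = 3), and its 3 EpPT2 libraries also lay above the 3 Ctrl libraries, which reached 6.52 CPM. Eral1, a GTPase that helps to assemble the small subunit of the mitochondrial ribosome, was at 23.4, 28.4 and 36.1 CPM in EpPT1 and 36.2, 39.6 and 37.5 CPM in EpPT2. The gap between the groups was thus within rounding of 0, set by EpPT1 3 and EpPT2 1. Qpctl, a Golgi glutaminyl cyclase, had a log2 difference of 0.61 (SE 0.32), and Nudt13, a Nudix hydrolase, one of 0.49 (SE 0.28). EpPT1 1 was the lowest EpPT1 library for Ptges, Rnf5 and Qpctl, at 5.14, 6.00 and 4.04 CPM. For these genes EpPT2 1 exceeded EpPT1 1 by 0.84, 0.82 and 1.03 on the log2 scale of CPM. It exceeded EpPT1 2 by 0.09, 0.32 and 0.09.

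In the lower direction the leading gene was Lrba, a BEACH-domain protein of vesicle traffic, at 43.9, 24.2 and 21.2 CPM in EpPT1 and 20.3, 17.7 and 19.2 CPM in EpPT2. Most of its log2 difference of -0.64 (SE 0.30) came from EpPT1 1, which lay above the Ctrl libraries (27.9 to 37.3 CPM). The same shape was seen in Strn, a scaffold of phosphatase 2A complexes, at 70.8 CPM in EpPT1 1 but 43.5 and 41.7 CPM in EpPT1 2 and 3, against 38.1, 38.1 and 39.2 CPM in EpPT2. Mospd1 was at 22.9 CPM in EpPT1 1, 14.0 and 13.4 CPM in the other EpPT1 libraries and 11.5 to 12.9 CPM in EpPT2. Ppwd1, a spliceosome-linked prolyl isomerase, was at 32.5 CPM in EpPT1 1, and its other exposed libraries were at 15.5 to 21.1 CPM. Lrch3 and Trmt10b, a tRNA methyltransferase homologue, were also highest in EpPT1 1 (19.2 and 13.6 CPM). In these 6 genes the group difference therefore moved with the library that stood apart, whose part in it was not tested.

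Nr2c2, a nuclear receptor also called TR4, was at 21.3 ± 3.44 against 14.5 ± 1.32 CPM (SD, n = 3). It too was highest in EpPT1 1, at 25.1 CPM, with 20.6 and 18.4 CPM in EpPT1 2 and 3. Cgn, which encodes the tight junction protein cingulin, was at 168, 146 and 168 CPM in EpPT1 and 138, 129 and 131 CPM in EpPT2 (log2 difference -0.28, SE 0.17). Its Ctrl libraries were at 143 to 156 CPM, with 1 of them below the lowest EpPT1 library. Vta1, a factor of endosomal sorting, had a log2 difference of -0.33 (SE 0.21). Its highest library was likewise EpPT1 1, at 41.1 CPM, with 33.8 and 31.2 CPM in EpPT1 2 and 3.

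**Figure D2:**
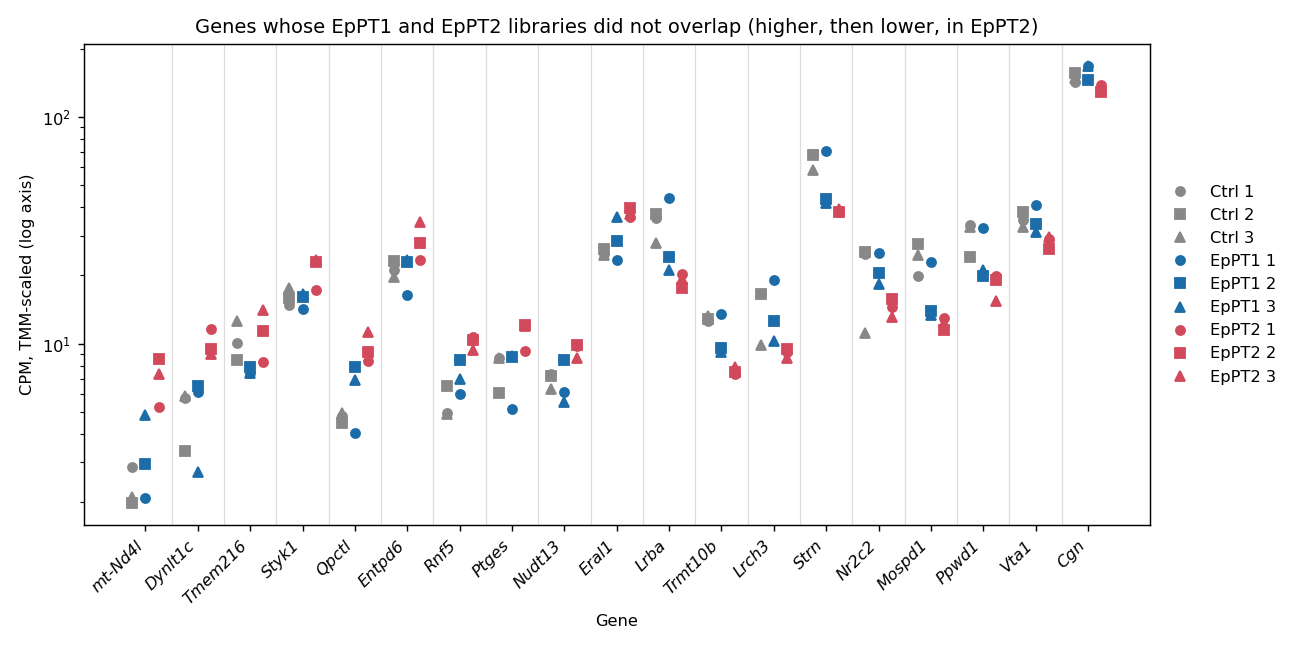
TMM-scaled CPM (log axis) of the named genes whose EpPT1 and EpPT2 libraries did not overlap; each point is 1 library, grey for Ctrl, blue for EpPT1 and red for EpPT2, with circles, squares and triangles for libraries 1, 2 and 3. For Lrba, Strn and Mospd1 the EpPT1 1 circle lies well above the other EpPT1 points; none of the genes shown passed the test.

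Mitochondrial transcripts made up 4.37 ± 2.25% of counts in EpPT1 and 5.46 ± 1.85% in EpPT2 (SD, n = 3), a difference of 1.09 percentage points (two-sided exact permutation test, p = 0.7, where 3 against 3 libraries can give no p below 0.1). Of the 15 mitochondrial genes tested, 10 had a positive and 5 a negative difference, with a median of 0.20 against -0.01 for all genes. mt-Co1, the catalytic subunit of cytochrome c oxidase, was at 20903, 11932 and 43302 CPM in EpPT1 and 15111, 39196 and 46130 CPM in EpPT2. High values came from the same 3 libraries whose mitochondrial share was over 5%, and the groups overlapped. mt-Nd1 and mt-Nd4, both of complex I, had log2 differences of 0.23 (SE 0.35) and 0.36 (SE 0.32), and mt-Cytb of complex III one of 0.26 (SE 0.25). Within the high libraries alone, mt-Cytb was 0.15 lower in EpPT2 on the log2 scale of CPM (-0.15), and 2 of the 15 genes lay above 0. The list median was -0.22 in the high libraries and 0.14 in the low ones, where 10 of the 15 genes lay above 0. The number of high libraries differed between the groups, and its part in the pooled median was not tested. In bulk RNA fewer cells of a kind and less RNA per cell cannot be told apart.

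The nuclear subunits and assembly factors of cytochrome c oxidase showed no common direction. Of 25 tested, 13 had positive and 12 negative differences, with a median of 0.00. Cox4i1 was at 614, 535 and 634 CPM in EpPT1 and 552, 600 and 606 CPM in EpPT2, and Cox6c at 440, 406 and 340 CPM against 441, 349 and 332 CPM. The ranges of both genes overlapped almost fully. The smallest p-values on this list belonged to Cox15, needed for heme A synthesis (log2 difference -0.33, SE 0.25), Cycs, which encodes cytochrome c (-0.43, SE 0.33), and Cox7a2l, a supercomplex factor (-0.32, SE 0.25). Cycs was at 227 CPM in EpPT1 1, 169 and 166 CPM in EpPT1 2 and EpPT2 1 and 94.7 to 104 CPM in the high libraries, so that it followed the library division rather than the exposure labels.

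Subunits of the other respiratory complexes had a median of -0.14, with 26 of 36 below 0. The leading members were the ATP synthase subunits Atp5h (-0.30, SE 0.23) and Atp5j (-0.34, SE 0.27) and Uqcrb of complex III (-0.31, SE 0.32). The list median was 0.08 within the low libraries (0.18 against EpPT1 1, -0.01 against EpPT1 2) and -0.01 within the high ones, so the pooled value was not seen on either side. Genes of mitochondrial biogenesis and dynamics had a median of -0.07, with 14 of 22 below 0. Tfam, the packaging factor of mitochondrial DNA, was at 69.3, 62.4 and 31.5 CPM in EpPT1 and 60.1, 31.6 and 35.4 CPM in EpPT2. Gabpa, an activator of nuclear respiratory genes, had a difference of -0.38 (SE 0.23), Ppargc1a, the coactivator PGC-1alpha, one of -0.69 (SE 0.42) and Opa1, the inner membrane fusion GTPase, one of -0.23 (SE 0.24).

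Antioxidant and NRF2 target genes were 20 of 30 below 0, with a median of -0.07. Hmox1, the heme-degrading NRF2 target, was at 253, 311 and 638 CPM in EpPT1 and 292, 518 and 540 CPM in EpPT2, again high in the high libraries of both groups. Nqo1, another NRF2 target, was at 17.7, 19.3 and 12.0 CPM against 19.5, 15.5 and 12.6 CPM. Ftl1, the ferritin light chain, had a log2 difference of 0.38 (SE 0.32), and the NADPH-producing enzymes Me1 and G6pdx had differences of -0.31 (SE 0.29) and -0.22 (SE 0.22). No difference on this list exceeded 2 standard errors among the named members.

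Immediate early genes varied widely between libraries of the same exposure. Of 29 tested, 18 had positive and 11 negative differences, with a median of 0.20. Fos, which encodes a subunit of the AP-1 factor, was at 7.39, 74.9 and 298 CPM in EpPT1 and 63.4, 291 and 207 CPM in EpPT2. EpPT1 1 was the lowest of all 9 libraries, and the closest cross-exposure pairs were alike (74.9 with 63.4 CPM, and 298 with 291 CPM). Egr1, a zinc-finger factor of the same early wave, was at 82.3, 219 and 441 CPM against 172, 556 and 485 CPM, a log2 difference of 0.71 (SE 0.64). Jund, an AP-1 subunit, was at 31.0 CPM in EpPT1 1 and 149 to 173 CPM in the other 5 exposed libraries. Cyr61, a secreted matrix protein induced by growth factors, was at 149, 417 and 999 CPM against 338, 1537 and 1389 CPM (log2 difference 1.06, SE 0.93). Fosb had the largest difference of the list at 1.55 (SE 1.28), from 2.08, 30.2 and 52.3 CPM to 16.9, 142 and 88.7 CPM. The list median for EpPT2 1 was 0.70 against EpPT1 1 but -0.25 against EpPT1 2, so on the low side the sign depended on which EpPT1 library was used.

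Atf3, a stress-induced transcription factor, ran the opposite way on the 2 sides. It was at 223, 355 and 151 CPM in EpPT1 and 144, 270 and 245 CPM in EpPT2, which gave -0.97 in the low and 0.77 in the high libraries (log2 CPM) and -0.15 (SE 0.72) in the fit. Jun showed 70.6, 187 and 269 CPM against 162, 249 and 196 CPM. Myc, a growth-associated transcription factor, was at 237, 357 and 435 CPM against 378, 399 and 401 CPM.

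**Figure D3:**
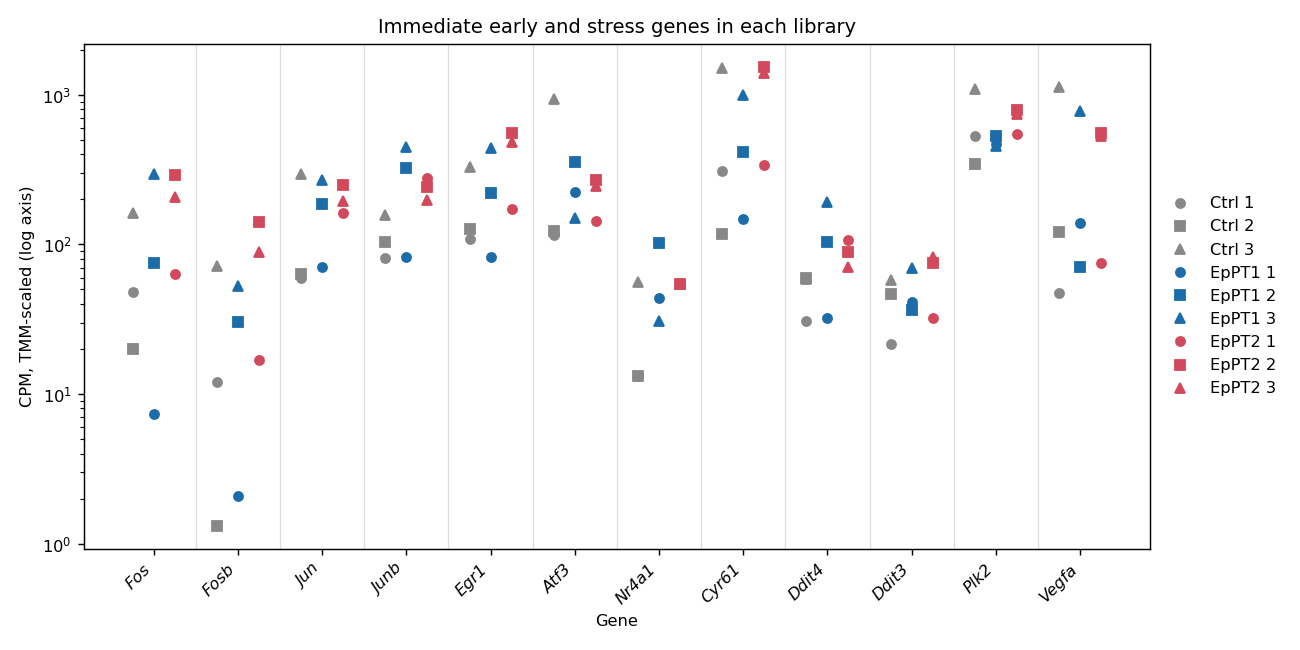
TMM-scaled CPM (log axis) of 12 immediate early and stress genes; each point is 1 library, grey for Ctrl, blue for EpPT1 and red for EpPT2, with circles, squares and triangles for libraries 1, 2 and 3. The EpPT1 and EpPT2 points interleave for most genes, and EpPT1 1 is the lowest exposed library for Fos (7.39 CPM), Junb (81.9 CPM) and Ddit4 (32.2 CPM).

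Targets of p53 were 12 above and 14 below 0, with a median of -0.03. Cdkn1a, the p53-induced cell cycle inhibitor p21, was at 199, 280 and 173 CPM in EpPT1 and 257, 189 and 170 CPM in EpPT2. Mdm2, the ubiquitin ligase that turns p53 over, was at 355, 216 and 280 CPM against 204, 285 and 301 CPM. Both overlapped, with log2 differences of -0.08 (SE 0.27) and -0.11 (SE 0.32). Plk2, a polo-like kinase induced by p53 and by serum, was the only member whose groups did not overlap, at 472, 528 and 457 CPM against 550, 791 and 748 CPM (log2 difference 0.52, SE 0.37). Fas, a death receptor, had a difference of 0.41 (SE 0.35) and Polk, a translesion polymerase, one of -0.45 (SE 0.28).

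The integrated stress response list was evenly divided, with 13 of 26 on each side of 0 and a median of 0.01. Atf4, its central transcription factor, was at 149, 289 and 319 CPM in EpPT1 and 288, 349 and 338 CPM in EpPT2, so that EpPT1 1 set the difference of 0.36 (SE 0.36). Ddit3, which encodes CHOP, was at 41.4, 36.3 and 69.6 CPM against 32.3, 75.4 and 82.6 CPM. Slc3a2, an amino acid transporter chain, was at 303, 317 and 709 CPM against 329, 701 and 730 CPM. Gdf15, a stress-induced secreted factor, was at 39.1 CPM in EpPT1 1 and 222 to 299 CPM in the other exposed libraries, with 31.2 to 84.8 CPM in Ctrl. The other 2 EpPT1 libraries and the EpPT2 libraries overlapped.

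NF-kappaB and inflammatory genes had a median of 0.04, with 12 above and 11 below 0. Nfkbia, the inhibitor that NF-kappaB induces, was at 65.4, 55.5 and 141 CPM against 49.0, 141 and 126 CPM, and Rela, a subunit of the factor, had a difference of 0.28 (SE 0.24). The chemokine Cxcl5 (-0.68, SE 0.57) and the adhesion molecule Vcam1 (-0.55, SE 0.54) were both lowest in high libraries. Heat shock chaperones had a median of -0.15, with 13 of 19 below 0. Hsph1 was at 225, 202 and 64.3 CPM in EpPT1 and 171, 64.2 and 70.8 CPM in EpPT2, and Hspd1, the mitochondrial chaperone, at 1292, 1037 and 586 CPM against 1010, 613 and 645 CPM, both split by side. Cryab, a small heat shock protein, was the only member without overlap, at 103 to 110 CPM in EpPT1 and 122 to 127 CPM in EpPT2 (log2 difference 0.22, SE 0.19). Hspa1a had at most 1 count in any library and was not tested.

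Cell cycle genes were mostly below 0 in the pooled comparison, with no member past the test. Of 30 genes of G1/S and DNA replication, 27 had negative differences and 3 positive ones, with a median of -0.23. Within the low and within the high libraries the median was 0.04 on both sides, and 17 of 30 were above 0 on each. Pcna, the sliding clamp of DNA polymerase, was at 518, 425 and 343 CPM in EpPT1 and 399, 341 and 333 CPM in EpPT2 (log2 difference -0.26, SE 0.21). Mcm5, a subunit of the replicative helicase, was at 106, 167 and 63.4 CPM against 171, 64.1 and 62.8 CPM, which paired EpPT1 2 with EpPT2 1 and EpPT1 3 with the other EpPT2 libraries. Slbp, which binds histone mRNA, had a difference of -0.30 (SE 0.23), and Pola1, a subunit of the primase polymerase, one of -0.53 (SE 0.45).

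Pooled over both sides, 28 of 34 genes of G2/M and mitosis were below 0 with a median of -0.20. In the low libraries the median was -0.17 with 10 of 34 above 0, and in the high libraries it was 0.12 with 31 of 34 above 0. The low value rested on EpPT1 1, since EpPT2 1 gave a median of -0.41 against it and 0.01 against EpPT1 2. Hmmr, a spindle protein, was at 107, 66.9 and 43.1 CPM in EpPT1 and 67.3, 36.3 and 37.1 CPM in EpPT2 (log2 difference -0.62, SE 0.41). Nusap1, a spindle assembly protein, and Bub1, a checkpoint kinase, had differences of -0.53 (SE 0.39) and -0.36 (SE 0.27). Mki67, the proliferation marker, went the other way, at 853, 567 and 1117 CPM against 617, 1342 and 1363 CPM (log2 difference 0.39, SE 0.34). Ccnb1, the mitotic cyclin, was at 312, 216 and 172 CPM against 228, 186 and 173 CPM. Genes of ribosome biogenesis had 25 of 32 below 0 and a median of -0.17, against 0.07 and -0.06 on the low and high sides. Ncl, which encodes nucleolin, was at 2635, 2419 and 1657 CPM against 2419, 1672 and 1508 CPM. Ddx21 (-0.40, SE 0.36), Wdr12 (-0.56, SE 0.55) and Utp15 (-0.27, SE 0.24) of the same list were also lower in each high library than in each low one.

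Extracellular matrix genes leaned the other way, with 20 of 23 tested above 0 and a median of 0.27. The median was 0.12 in the low and 0.09 in the high libraries, and for EpPT2 1 it was 0.20 against EpPT1 1 and 0.00 against EpPT1 2. Sparc, a collagen-binding matrix protein, was at 210, 222 and 331 CPM in EpPT1 and 247, 338 and 370 CPM in EpPT2 (log2 difference 0.32, SE 0.27). Col4a2, a basement membrane collagen chain, was at 61.1, 85.5 and 177 CPM against 89.1, 195 and 202 CPM. For both genes each EpPT2 library was above its closest EpPT1 library, but by less than the distance between the sides. Mmp14, a membrane-bound matrix protease, was at 150, 195 and 237 CPM against 173, 232 and 220 CPM. Mmp3, a secreted matrix protease, did not overlap, at 0.29, 0.62 and 0.83 CPM against 1.58, 0.86 and 0.99 CPM, a level of few reads. Col1a1 stayed at 0.58 to 3.34 CPM in all exposed libraries, and the fibroblast marker sum over 10 genes ran from 774 to 2110 CPM in EpPT1 and 791 to 2070 CPM in EpPT2; its part in the list's median was not tested.

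TGF-beta ligands and targets had a median of 0.12, with 12 of 20 above 0. Inhba, which encodes the activin A chain, was at 3.23, 3.62 and 3.54 CPM in EpPT1 and 4.81, 5.87 and 5.01 CPM in EpPT2, without overlap (log2 difference 0.59, SE 0.38). Its difference was 0.48 within the low and 0.60 within the high libraries. Smad2, a signal transducer, had a difference of -0.34 (SE 0.39). EGF receptor family genes had a median of 0.01 with 9 of 16 above 0. Erbb3, a receptor of that family, was at 41.3, 38.6 and 57.3 CPM against 36.4, 76.5 and 73.9 CPM. Its ligand-side neighbour on the list, Hbegf, had a difference of 0.31 (SE 0.32), and Spred1, an inhibitor of the pathway, one of -0.46 (SE 0.41).

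Cholesterol synthesis genes had a median of -0.05, with 16 of 24 below 0. Hmgcs1, an early enzyme of the pathway, was at 95.7, 109 and 30.7 CPM in EpPT1 and 111, 42.0 and 40.5 CPM in EpPT2. Insig1 (-0.43, SE 0.34) and Srebf2 (0.25, SE 0.21), both regulators of the pathway, and Stard4 (-0.41, SE 0.40), a sterol carrier, had the smallest p-values. Glycolysis and hypoxia genes had a median of -0.05, with -0.26 in the low and -0.06 in the high libraries. The low value rested on EpPT1 1, with a median of -0.49 against it and -0.01 against EpPT1 2. Slc2a1, the glucose transporter GLUT1, was at 201, 136 and 525 CPM against 137, 513 and 513 CPM. Vegfa, the angiogenic factor, was at 139, 71.2 and 775 CPM against 74.8, 554 and 533 CPM. The hypoxia-responsive genes Bnip3l and Egln3 had differences of -0.35 (SE 0.32) and -0.21 (SE 0.20). Egln3 did not overlap, but EpPT2 2 (171.5 CPM) lay only just below EpPT1 3 (172.6 CPM). Slc16a3, a lactate exporter, was under 3 CPM in every exposed library.

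Clock genes, cryptochromes and opsins had a median of 0.10, with 13 of 20 above 0. Cry2, a cryptochrome of the circadian clock, did not overlap between the groups, at 14.4, 18.4 and 18.9 CPM in EpPT1 and 22.1, 21.6 and 19.7 CPM in EpPT2 (log2 difference 0.29, SE 0.23). Cry1 was at 32.1, 24.9 and 41.2 CPM against 23.5, 34.0 and 38.1 CPM, and Per1, a clock gene that is also an early response gene, at 15.5, 42.1 and 32.6 CPM against 41.3, 23.8 and 25.6 CPM. Npas2 reached 6.49 CPM and the short-wave opsin Opn1sw 1.13 CPM at most in the exposed libraries. Milk protein and prolactin signalling genes had a median of -0.11, with 8 of 11 below 0. The list held 18 genes, of which Csn1s2a, Csn2, Wap and Lalba were at 0 in all 9 libraries. Csn3, which encodes kappa-casein, was at 30.1, 23.8 and 98.4 CPM in EpPT1 and 30.6, 102 and 104 CPM in EpPT2, a clear division by side and none by exposure. Stat5a, the factor that prolactin activates, had a difference of -0.19 (SE 0.19), and Plin2, a lipid droplet protein, one of -0.27 (SE 0.26). Vim, the intermediate filament of mesenchymal cells and of cultured epithelia, was at 1602 CPM in EpPT1 1 586 and 636 CPM in EpPT1 2 and EpPT2 1 and 1439 to 1469 CPM in the high libraries, while Krt8 (612 to 775 CPM) and Krt18 (760 to 976 CPM) varied little.

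**Figure D4:**
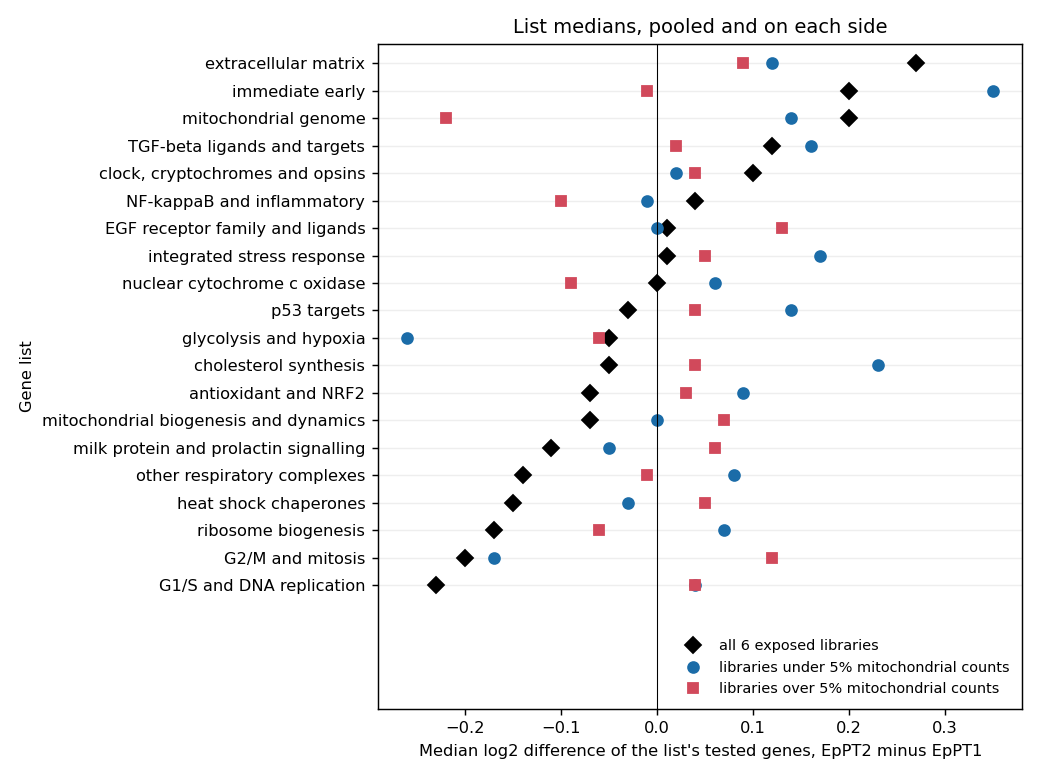
Median log2 difference (EpPT2 minus EpPT1) of the tested genes on each of the 20 gene lists, from the fit to all libraries (black diamonds) and as log2 CPM differences in the low (blue circles) and high (red squares) libraries. G1/S genes lie at -0.23 in the fit but at 0.04 on both sides, and immediate early genes at 0.20, 0.35 and -0.01.

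Differences measured on the 2 sides of the mitochondrial division did not correspond. For each gene EpPT2 1 was set against the mean of EpPT1 1 and 2, and the mean of EpPT2 2 and 3 against EpPT1 3. Over 14471 genes, which share libraries, depth and composition within each side, Pearson's r between the 2 differences was -0.05, and 43.4% of genes had the same sign in both. The median differences were 0.01 and 0.00.

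**Figure D5:**
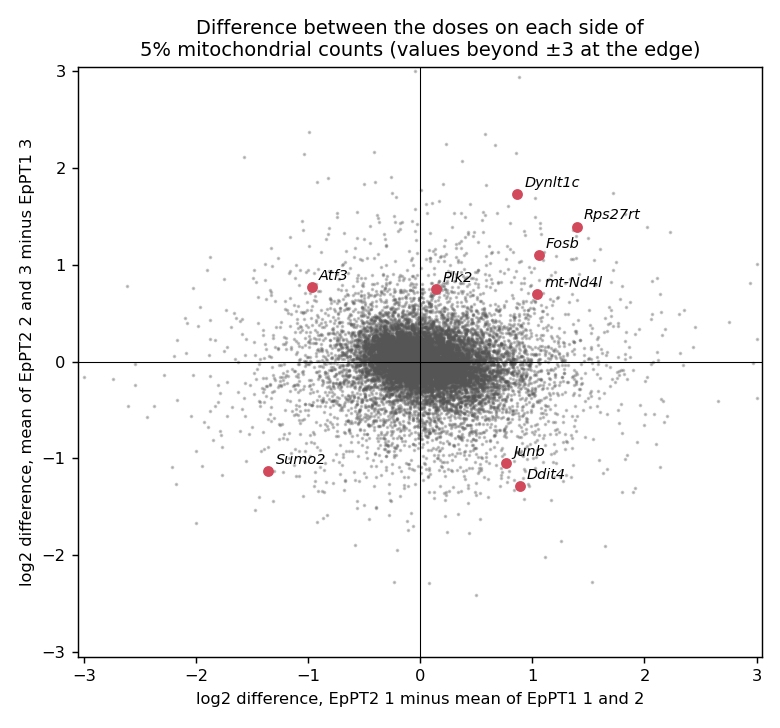
Log2 CPM difference between the exposures for each tested gene in the low libraries (x axis, EpPT2 1 minus the mean of EpPT1 1 and 2) and in the high libraries (y axis, mean of EpPT2 2 and 3 minus EpPT1 3); each grey point is a gene, and values beyond 3 sit at the edge. The cloud has no visible slope (r = -0.05), Ddit4 and Junb lie lower on the y axis only, and Sumo2 lies at -1.35 and -1.13.

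A fit to the 4 libraries over 5% mitochondrial counts gave calls from a small design. With EpPT1 3 and Ctrl 3 alone in their groups, the spread rested on EpPT2 2 against EpPT2 3 (1 residual degree of freedom, coefficient of variation 6.15%), and EpPT1 3 was assumed to vary like them. Of 15086 genes, 87 were called higher (0.577%) and 203 lower (1.35%) in EpPT2 by edgeR's quasi-likelihood test at an adjusted p under 0.05. The comparison is therefore of EpPT1 3 with 2 libraries of the other exposure and has no check of how far a second EpPT1 library would differ. The pair on the low side, EpPT2 1 and EpPT1 2, had the same sign as the call in 134 of the 289 called genes it could be read for (46.4%), against 48.4% over all genes. Against the mean of EpPT1 1 and 2, EpPT2 1 had that sign in 92 genes (31.8%), against 43.3% over all genes. Called genes that were lower had a median GC content of 54.7% and those higher one of 46.5%, where all tested genes had 49.8%; the part of GC content in these calls was not tested.

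On the immediate early list 14 of 29 genes tested lay above 0 in the high libraries, with a median of -0.01. In that fit Cyr61 (0.55) and Klf6 (0.325) were higher in EpPT2, and Fosl2 (-0.36) and Ier3 (-0.52) were lower. Junb, an AP-1 subunit, was at 451 CPM in EpPT1 3 and 241 and 197 CPM in EpPT2 2 and 3 (log2 difference -1.04, SE 0.09, edgeR adjusted p = 1.04e-07). Ddit4, an inhibitor of mTORC1 induced by stress, was at 193 CPM against 88.5 and 71.2 CPM (log2 difference -1.27, SE 0.10, edgeR adjusted p = 7.45e-09). Atf3 was higher in EpPT2 there (0.77, edgeR adjusted p = 7.85e-06), as were Fosb (1.14) and the nuclear receptor Nr4a1 (0.82). On the low side the values depended on the EpPT1 library used. EpPT2 1 minus EpPT1 2 came to -1.30 for Atf3, -0.92 for Nr4a1, -0.84 for Fosb, -0.23 for Junb and 0.04 for Ddit4 on the log2 scale. EpPT2 1 minus EpPT1 1 came to -0.63 for Atf3, 0.30 for Nr4a1, 2.95 for Fosb, 1.76 for Junb and 1.73 for Ddit4. Atf3 was thus lower in EpPT2 1 than in either of them, and the other 4 genes were higher than in EpPT1 1.

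Other list members called in that fit went in both directions. Gpx1, Slc7a5, Cenpf, Nr1d1 and Erbb3 were higher in EpPT2, and Cebpb, Irf1, Id1, Ankrd37 and Vwf were lower. Plk2 was higher (0.75, edgeR adjusted p = 2.87e-06) and so was Pmaip1, the p53 target NOXA (0.33). Among mitochondrial genes mt-Nd1 (-0.31), mt-Co3 (-0.59), mt-Atp6 (-0.51) and the ribosomal RNAs mt-Rnr1 (-0.48) and mt-Rnr2 (-0.65) were lower. The last was at 1192 CPM in EpPT1 3 and 689 and 830 CPM in EpPT2 2 and 3. On the low side they did not keep that direction. In the same order, EpPT2 1 minus EpPT1 2 came to 0.32, 0.36, 0.74, 0.54 and 0.05 on the log2 scale. EpPT2 1 minus EpPT1 1 came to 0.49, -0.415, 0.78, -0.52 and -0.71. Vegfa (-0.51) and the growth factor Csf1 (-0.70) were lower. Lower too were Nop2 (-0.38), Rrp1b (-0.495) and Ubtf (-0.37) of ribosome biogenesis, a list with 10 of 32 genes above 0 in the high libraries. EpPT2 1 minus EpPT1 2 came to 0.07 for Vegfa, 0.01 for Csf1, 0.04 for Nop2, 0.05 for Rrp1b and -0.14 for Ubtf. Against EpPT1 1 these values were -0.89, 1.165, 0.36, 0.56 and 0.15.

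Upstream sequences are shown for Junb, lower in EpPT2 in that fit, and for Fosb, Atf3 and Plk2, higher there. The site marked is that of the cAMP response element (CRE), and whether it acts in these genes was not tested. The sequences are the bases from 250 to 11 before the RefSeq start, from RefSeq on GRCm38.p6. They are printed 5′ to 3′ in the direction of the gene, with matches of the CRE half-site TGACG on either strand in capitals.
Junb (chr8:84978759-84978998, minus strand): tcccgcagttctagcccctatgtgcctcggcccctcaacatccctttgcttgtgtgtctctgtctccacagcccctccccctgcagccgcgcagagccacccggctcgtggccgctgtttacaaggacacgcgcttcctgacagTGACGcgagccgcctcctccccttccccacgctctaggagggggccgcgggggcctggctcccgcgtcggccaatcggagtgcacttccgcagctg
Fosb (chr7:19310056-19310295, minus strand): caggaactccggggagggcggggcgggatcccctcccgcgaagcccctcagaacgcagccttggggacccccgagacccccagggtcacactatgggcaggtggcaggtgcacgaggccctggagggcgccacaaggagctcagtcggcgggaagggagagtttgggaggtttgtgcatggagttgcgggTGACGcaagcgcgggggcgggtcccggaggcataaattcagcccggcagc
Atf3 (chr1:191183344-191183583, minus strand): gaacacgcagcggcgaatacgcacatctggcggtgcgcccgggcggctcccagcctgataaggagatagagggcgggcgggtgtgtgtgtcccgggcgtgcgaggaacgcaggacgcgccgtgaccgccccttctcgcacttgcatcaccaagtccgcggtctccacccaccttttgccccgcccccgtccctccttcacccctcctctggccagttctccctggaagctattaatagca
Plk2 (chr13:110394794-110395033, plus strand): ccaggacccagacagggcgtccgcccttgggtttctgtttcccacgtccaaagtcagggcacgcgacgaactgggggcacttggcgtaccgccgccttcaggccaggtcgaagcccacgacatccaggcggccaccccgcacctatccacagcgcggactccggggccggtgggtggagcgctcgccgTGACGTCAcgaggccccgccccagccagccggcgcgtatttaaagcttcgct
The half-site occurred once in Junb and in Fosb and in 16.9% of all 32851 promoters of the table over the same 240 bases. In Plk2 both strands matched, within 1 full CRE, TGACGTCA, which 1.44% of those promoters held. The Atf3 window had no match. It lies inside the gene's annotated span, which runs to base 191218039, so it covers only the RefSeq start used. A match is only a string of letters, and the gene that was lower and a gene that was higher held the same half-site.

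Of 10242 genes with a mean of at least 5 CPM, 9 differed by more than 1.5-fold in 1 direction in all 3 close pairs. These were 5 higher and 4 lower in EpPT2. The pairs were EpPT2 1 with EpPT1 2, and EpPT2 2 and EpPT2 3 each with EpPT1 3. The genes named here were picked from the 9 after their values were seen. Sumo2, which encodes a ubiquitin-like modifier, was at 18.9, 84.9 and 61.6 CPM in EpPT1 and 15.6, 29.6 and 26.6 CPM in EpPT2, with 41.7 to 76.4 CPM in Ctrl. EpPT1 1 was low and overlapped EpPT2, and the other 2 EpPT1 libraries were above every EpPT2 library (log2 difference -1.20, SE 0.49, edgeR adjusted p = 0.9999). Rps27rt, a copy of a ribosomal protein gene, was at 107, 54.3 and 59.4 CPM against 201, 252 and 97.0 CPM, with 160 to 221 CPM in Ctrl. EpPT1 1 lay above EpPT2 3, so the groups overlapped. Since the sequence of Rps27rt has near-identical copies its count is uncertain, as may be that of Sumo2, which has pseudogenes. With EpPT1 1 and the Ctrl libraries left out and mitochondrial share as a covariate, a fit chosen after seeing the data, Sumo2 (-1.65), Rps27rt (1.71) and the predicted gene Gm10241 (1.93) were the 3 genes called.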

How the data were processed

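RNA-seq counts per gene for 9 libraries were read from a table of raw counts that the authors deposited. Bowtie 0.12.2 and the build mm8 are named in the submitters' processing notes, but 98.3% of gene IDs found in GENCODE M21 have its coordinates, so coordinates are given on GRCm38. Which counter was used, and whether it used strand, is not stated in the labels. The series title names human tissue and a laser, and the design text mouse cells and an LED.

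In R 4.3.3, edgeR 4.0.16 (TMM, filterByExpr, quasi-likelihood, 1 fit to all 9 libraries, 6 residual degrees of freedom, no block, two-sided, Benjamini-Hochberg, threshold 0.05) gave the contrast EpPT2 minus EpPT1. A standard error is the size of the log2 difference over the square root of F. Levels of single genes are in TMM-scaled CPM, marker sums are in CPM without TMM, and library differences used log2 CPM with a prior count of 2. Libraries under and over 5% mitochondrial counts are called low and high. The members and lists, 20 of pathways and 6 of markers, were chosen with earlier results of these data known, and lists were not tested as sets. Named genes are 10 in each direction without overlap by smallest p (at least 5 CPM, predicted genes, pseudogenes and ribosomal copies left out), 38 fixed genes and up to 3 members of smallest p per list. A few genes that this rule names are not reported here. On simulated data with 200 of 14471 genes changed, the fit recovered 66% of 4-fold and 8% of 2-fold changes, with 1.33% false calls. Simulated libraries were drawn independently, without the low and high division. Alternatives were DESeq2 size factors, DESeq2 1.42.0, limma-voom (limma 3.58.1), other filters, a GC correction (spline, 5 degrees of freedom), mitochondrial share as a covariate, the 6 exposed libraries only, each side only, the replicate block and each library left out.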

Additional observations from a re-analysis of the deposited data

How the results depend on the processing

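The count of 0 genes called was the same under DESeq2 size factors, limma-voom, DESeq2, the filter of 5 CPM in 3 libraries, the 6 exposed libraries alone, the GC correction, the mitochondrial covariate, both of these together, the low libraries alone, mitochondrial genes left out, the replicate block with or without the GC correction, and each library left out. It was 2 without a filter, both predicted genes carried by 1 library (Gm14632 with 657 counts in EpPT1 1, Gm10488 with 113 in EpPT2 3), 290 in the high libraries alone, and 3 in the 5 exposed libraries without EpPT1 1 with the covariate, added after seeing the data. At an unadjusted p under 0.05, the main 31 genes became 262 without a filter, 11 with the stricter filter, 173 under the replicate block (0 called) and 152 under the replicate block with the GC correction, 89 with the mitochondrial covariate, 120 with covariate and GC correction, 54 in the low and 2187 in the high libraries alone, and 17 to 709 with each library left out. The added fits without EpPT1 1 with the covariate gave 107 with and 379 without Ctrl. The causes were not tested, beyond fewer genes or libraries where a fit uses fewer. Replicate numbers did not pair the exposed libraries throughout: deviations of same-numbered libraries correlated at 0.19, -0.64 and 0.64 for numbers 1, 2 and 3. In mitochondrial share, number 1 was low (3.44% and 3.38%) and number 3 high (6.93% and 6.94%), while number 2 was divided (2.74% and 6.06%). Whether some numbers shared a batch was not tested. The difference in mitochondrial share ranged from 0.27 to 2.37 percentage points with each exposed library left out.

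Among 2888 values of 116 named genes under alternatives, 2697 stayed within 1 standard error of the main value. A sign change was counted where both values exceeded their standard errors. It occurred in the high libraries alone, for mt-Cytb (-0.14), Cox7a2l (0.18), Atp5j (0.093), Me1 (0.20), Vcam1 (0.27), Nusap1 (0.19), Insig1 (0.28), Bnip3l (0.15) and Hspd1 (0.10). A looser count, of any sign change in genes past 1 standard error in the main fit, came to 51. Of 524 values of list medians and the median of all genes, 399 moved by less than 0.1 on the log2 scale. With 3 libraries a group and 4-fold changes recovered in 66% of simulated cases, 2-fold changes lay mostly beyond detection in the simulation. Since it had no low and high division, detection in the real libraries was not measured.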
